A study of Mus musculus with 4 samples.

Results

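Lysosomes are acid compartments in which hydrolases cut proteins, glycans and lipids. A vacuolar proton pump keeps them acid, membrane proteins such as LAMP1 and LAMP2 enclose them, and the transcription factor TFEB drives many of their genes by binding E-box elements in promoters. In cells that carry MHC class II (MHCII), the same proteases trim antigens and cut the invariant chain (Cd74) that blocks the peptide groove, so lysosomal enzymes are part of antigen presentation.

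The 37 genes described here are lysosomal hydrolases, cathepsins, cofactors, membrane proteins and proton pump subunits, with Tfeb. They were chosen by gene symbol, as every row of the deposited table that carries one of 37 names, and are 37 of its 17519 genes. The names matched 38 rows, because Glb1 stands on a second row whose identifier GENCODE calls Tmppe. That row overlaps Glb1 by 165 exon bases on the same strand, and its FPKM of 1.29, 1.41 and 1.86 at day 1 and of 1.59 at day 0 was kept apart. FPKM counts mapped fragments relative to transcript length and library depth, so levels of different genes can be set side by side.

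The cells were MHCII+ cells bead-purified from C57Bl.6 mouse spleen and sequenced as 4 libraries. The day 1 group was 3 libraries of cells cultured for 24 h with 50 µg/ml PSA, polysaccharide A a capsule sugar polymer of the gut bacterium Bacteroides fragilis. The day 0 group was 1 library of freshly isolated cells that received no PSA. Cells cultured for 24 h without PSA were not analysed here, so PSA and culture cannot be told apart, and separate mice or cultures are not stated for the 3 day 1 libraries, so the spread between them may be technical. The labelled cell type fitted its markers: Cd74 had 8316, 8399 and 7453 FPKM at day 1 and 2936 FPKM at day 0, and H2-Aa, an MHCII chain, had 3797, 3431 and 2795 FPKM at day 1 and 2130 FPKM at day 0.

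The day 0 library stood apart in depth. Judged from the steps in which low FPKM values rise, day 1 depth was 14.1, 16.0 and 22.0 times that of day 0, with an estimated 2.93e+06, 3.19e+06 and 4.32e+06 fragments in protein-coding genes, against 220991 at day 0. Genes listed at 0 numbered 2663, 2531 and 2073 at day 1 and 7378 at day 0, and protein-coding genes held 80.2%, 82.2% and 83.4% of the summed FPKM at day 1 and 11.5% at day 0. That is not a share of fragments, since FPKM weighs short transcripts heavily, and Mir5105 alone had 1.58e+06 FPKM at day 0. FPKM times length in kb, summed over protein-coding genes, was similar, at 977848, 940310 and 925359 at day 1 and 1.04e+06 at day 0. The level that 3 fragments would give a transcript of 2 kb, taken as a floor, was 0.4998, 0.442 and 0.321 FPKM at day 1 and 7.07 FPKM at day 0. The day 0 value of each gene is therefore given below with its estimated number of fragments, and a 95% exact Poisson interval of that number, called the counting interval, was set against the day 1 mean. Intervals and floors cover counting error only. Some genes at or near 0 in all day 1 libraries stood high at day 0. Slc1a3 had 0.253, 0 and 0 FPKM at day 1 and 1210 FPKM at day 0, and Pou1f1 had 0, 0.019 and 0 FPKM and 973 FPKM. The cause was not tested. Falls from high day 0 values, such as those of Dnase2a and Clcn7 below, rest on this same library.

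Some of these genes carry, near their start, letters of the E-box type that TFEB is known to bind. In RefSeq's promoter table (GRCm38.p6, 250 bases before to 50 after each start), 31 of the 37 genes had an entry, and Asah1, Atp6v1b2, Ctsb, Ctse, Ctsh and Npc1 had none. The letters TCACGTGA, which read the same on both strands and contain the E-box CACGTG, stood in the window of 7 of the 31 (22.6%), against 304 of all 27025 genes in the table (1.12%). The 7 were Atp6v0d1, Atp6v1a, Ctsa, Ctsd, Gla, Ifi30 and Mcoln1. The shorter CACGTG stood in 12 of 31 (38.7%), against 8.09% of all genes, and added Ctsl, Gaa, Glb1, Lamp1 and Lgmn. Sequence before the start is printed for 6 of the 7 genes, to show how the element sits in genes that did and did not change. Capitals mark the motif, each line runs 5′ to 3′ on the gene's strand, and the match of Atp6v0d1, which crosses its start, is not printed.
Ctsd: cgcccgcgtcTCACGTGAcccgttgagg
Mcoln1: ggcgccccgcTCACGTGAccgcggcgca
Ifi30: tccaaaaactTCACGTGAccagacatgc
Ctsa: gagcaaactgTCACGTGAtgcag
Atp6v1a: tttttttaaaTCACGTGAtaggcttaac
Gla: gagatctcggTCACGTGAgcaactctcg
In GRCm38.p6 these lie at chr7:142387909-142387936 on the minus strand for Ctsd, chr8:3500463-3500490 on the plus strand for Mcoln1 and chr8:70766843-70766870 on the minus strand for Ifi30. The windows of Ctsa, Atp6v1a and Gla are chr2:164833750-164833772 (plus), chr16:44139374-44139401 (minus) and chrX:134601183-134601210 (minus). Between motif and start lay 91 bases in Ctsd, 38 in Mcoln1, 189 in Ifi30, 5 in Ctsa, 124 in Atp6v1a and 187 in Gla. Gla held a second match 220 bases before its start, and Ctsa a second one after its start. A match is a run of letters in a window and was not tied to binding by any measurement here. The motif was chosen as one that TFEB binds in lysosomal genes, so its larger share among these genes was foreseeable.

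Most of the 37 genes were higher after 24 h with PSA. All 3 day 1 libraries lay above the day 0 library for 30 of 37 (81.1%), against 53.7% of the 13903 genes tested, and below it for 3 of 37 (Lgmn, Grn and Atp6v1a, 8.11%), against 31.4%. By limma on log2(FPKM + 1), with Benjamini-Hochberg adjustment over 13903 genes and a threshold of 0.05, 20 of 37 rose (54.1%), against 35.0% of all genes, 2 fell (5.41%), against 19.0%, and 15 passed in neither direction. The median log2 change, day 1 over day 0, was 0.94 for the 37 genes and 0.59 for all genes tested, and it was 0.83 over the members above 0 at day 0. Relative to that shift of 0.59, the members' median was 0.35. The shift depends on the genes counted, since 3875 of those tested were listed at 0 at day 0. Over genes above 0 at day 0, the median log2 ratio of FPKM was 0.93 for 34 members and 0.04 for 10028 genes. Among genes whose day 1 level predicts at least 10 fragments at day 0, the median log2 change was 0.82 for members and 0.65 for all. The 37 genes were not all lifted alike, since changes ran from -1.53 for Lgmn to 4.23 for Cd63. Their FPKM summed to 2611, 2534 and 2691 in the day 1 libraries and 1621 in the day 0 library, a ratio of 1.61. In bulk samples a change in the share of a cell type and a change of RNA per cell cannot be told apart.

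Other call rules bear on the shallow day 0 library. Counting error at day 0 is not in limma's standard errors, since the lone day 0 library is assumed to vary like the day 1 libraries. Of the 20 rises, 16 also had a day 1 mean above the day 0 counting interval (43.2% of 37, against 17.8% of 12988 genes), and Ctsd, Glb1, Lipa and Ctse did not. Both falls lay below their interval (5.41%, against 14.7%). Among genes with at least 10 fragments predicted at day 0 from their day 1 level, 17 of 27 members rose (63.0%), against 52.5% of 3831 genes, and 2 of 27 fell (7.41%), against 14.6%. That filter follows the day 1 level, so genes that rose pass it more easily than genes that fell (Neu1 passed with 2.99 fragments at day 0 and Atp6v1a, with 9.76, did not), and nothing is read from these shares. Without day 1 replicate 2, limma called 7 of 37 members higher (18.9%), against 16.7% of all genes. The 7 were Ctsh, Lamp1, Tfeb, Man2b1, Neu1, Cd63 and Ctsl. Without this library the members' share of rises was thus close to that of all genes. The members' median log2 change was then 0.99, against 0.94 with all libraries, so calls were lost while the median size of change stayed similar.

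The authors' deposited table called none of the 37 genes at a false discovery rate of 0.05, while it called 0.28% of its 17519 genes higher and 2.53% lower. At an unadjusted p under 0.05 in the authors' deposited table, 2 of 37 members passed (5.41%, against 11.8% of the genes tested here), Cd63 with a log2 fold change of 1.33 and Lgmn with -0.99. The median of its log2 fold changes was 0.06 over the members, with 23 of 37 above 0 (62.2%, against 52.4% of all genes tested here), and 0.04 over all genes tested here. Over genes above 0 at day 0, the log2 ratio of the deposited FPKM exceeded that of the authors' deposited table. The median excess was 0.79 for 34 members and 0.17 for 10028 genes tested. Among such genes with at least 10 fragments predicted at day 0, it was 0.78 for members and 0.56 for all genes. How its folds were scaled is not known. For 3 of the 20 genes that rose (Ctss, Ctsa and Ifi30; 15.0%) the authors' deposited table has a negative log2 fold change, against 16.7% of all genes that rose.

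**Figure D1:**
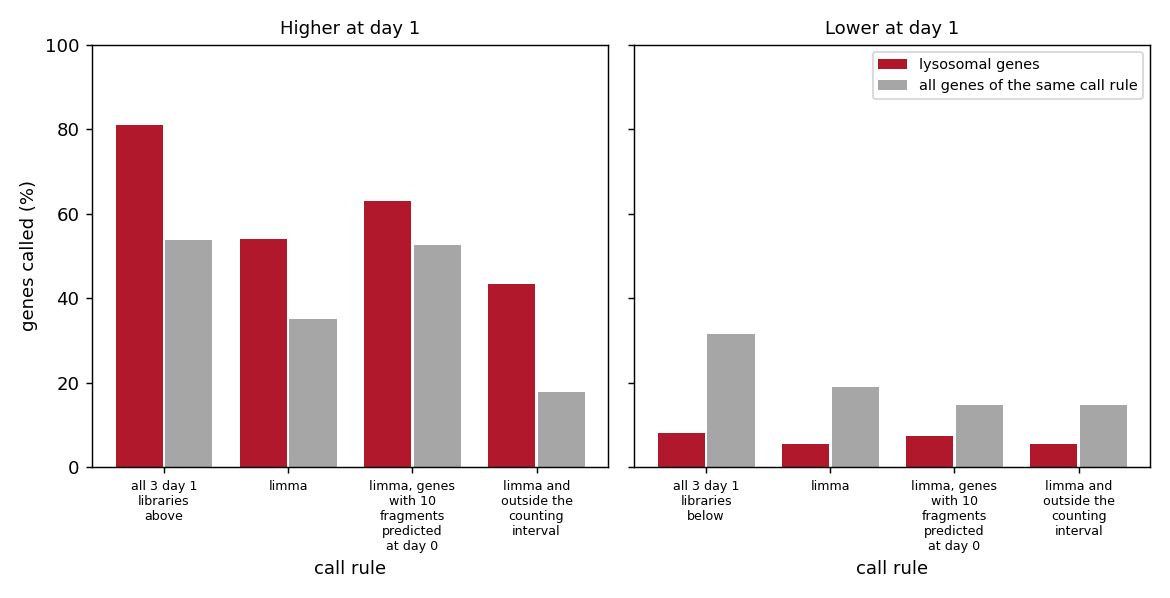
Bars give the percent of genes called higher (left) or lower (right) at day 1, for the 37 lysosomal genes (red; 27 in the fit over genes with 10 fragments predicted) and for all genes under the same call rule (grey). By limma over all genes, 54.1% of lysosomal genes and 35.0% of all genes rose, while 5.41% and 19.0% fell.

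Cysteine cathepsins, the main endosomal proteases, held some of the highest levels of the set. Of 6, 4 rose (66.7%, against 35.0% of all genes) and 2 passed in neither direction. Their FPKM summed to 731, 713 and 748 at day 1 and to 307 at day 0, a ratio of 2.38. Ctss, which makes the last cut of the invariant chain in spleen antigen-presenting cells, had 234, 258 and 245 FPKM at day 1, against 112 FPKM at day 0 from 32.3 estimated fragments. Every day 1 value was more than the day 0 value, the fold was 2.19 and the log2 change 1.12 ± 0.12 (SE; limma adjusted p = 0.0082). Ctsh (chr9:90054152-90076089, GRCm38), an aminopeptidase, had 222, 199.9 and 209 FPKM at day 1 and 65.1 FPKM at day 0 from 22.3 fragments. Its groups did not overlap, and its log2 change was 1.68 ± 0.12 (limma adjusted p = 0.0046). Ctsz, a carboxypeptidase, had 201, 172 and 185 FPKM at day 1 and 79.2 FPKM at day 0, a log2 change of 1.22 ± 0.14 (limma adjusted p = 0.0094).

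Ctsl, which cuts the invariant chain in thymic epithelium, was listed at 0 at day 0 and had 12.1, 10.4 and 10.4 FPKM at day 1. At its day 1 level 4.59 fragments would be predicted at day 0. The day 1 values lay above its day 0 floor of 3 fragments, 7.17 FPKM, and above the counting bound of 8.82 FPKM (limma adjusted p = 0.0033). The size of a fitted change from 0 depends on the pseudocount, so no fold is given. Ctsl shares 395 exon bases with a processed pseudogene on its own strand and 1742 with an antisense gene, and the strand handling of the authors' counting is not given in the sources used here.

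Ctsc and Ctsb passed in neither direction. Ctsc, a dipeptidyl peptidase that activates granule proteases, had 37.6, 44.4 and 65.9 FPKM at day 1 and 24.5 FPKM at day 0. All 3 day 1 values were higher, but they were spread by a standard deviation of 14.8 FPKM around 49.3 FPKM, and the log2 change was 0.94 ± 0.38 (limma adjusted p = 0.12). Ctsb, a broad lysosomal protease, had 24.8, 27.8 and 31.9 FPKM at day 1 and 25.5 FPKM at day 0. The day 0 value fell inside the day 1 range, with a log2 change of 0.13 ± 0.19, and Ctsb shares 774 exon bases with Fdft1 on the other strand.

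**Figure D2:**
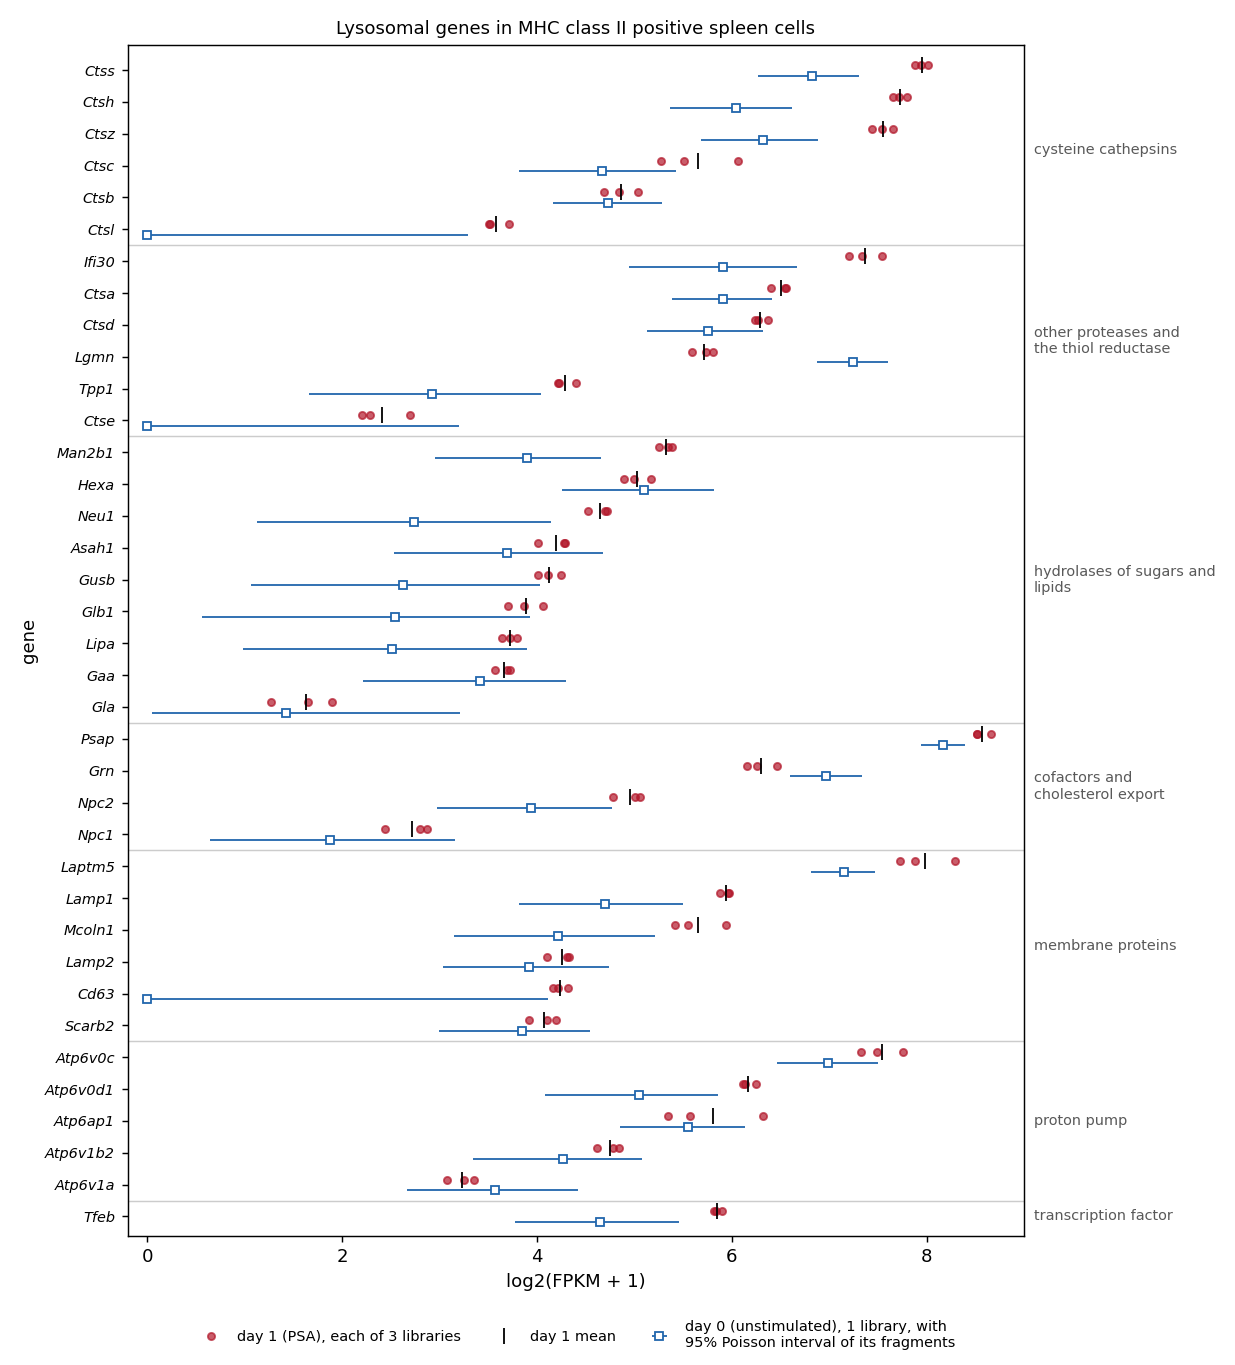
The log2(FPKM + 1) of the 37 lysosomal genes is plotted by role, with each day 1 library as a red point, the day 1 mean as a black tick and the day 0 library as a blue square with the 95% Poisson interval of its fragments. Lgmn and Grn lie to the left of their day 0 squares and beyond their intervals, while Ctsh, Ctsz and Ctss lie to the right of theirs.

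Among the other proteases and the thiol reductase, 5 of 6 rose (83.3%, against 35.0% of all genes) and Lgmn fell (16.7%, against 19.0%). Lgmn (chr12:102394084-102439813, minus strand, GRCm38) encodes legumain, which cuts after asparagine and also processes cathepsins. It had 47.1, 52.3 and 55.0 FPKM at day 1, against 150.4 FPKM at day 0 from 63.5 fragments, whose counting interval ran from 117 to 194 FPKM. The day 1 libraries lay close together and all below that interval, the day 1 mean was 2.92-fold lower and the log2 change was -1.53 ± 0.14 (limma adjusted p = 0.0064). Without day 1 replicate 2 the log2 change was -1.54 and the adjusted p 0.050.

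Ifi30, or GILT, reduces disulfide bonds of antigens in the lysosome. It had 185, 160.5 and 146 FPKM at day 1 and 59.1 FPKM at day 0 from 12.3 fragments, a log2 change of 1.45 ± 0.18 (limma adjusted p = 0.011). Tpp1, a tripeptidyl peptidase, had 17.6, 17.7 and 20.1 FPKM at day 1 and 6.56 FPKM at day 0 from 4.95 fragments, a log2 change of 1.36 ± 0.14 (limma adjusted p = 0.0080). Groups did not overlap for either gene.

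Smaller rises were called for Ctsa and Ctsd. Ctsa, a carboxypeptidase that also protects Neu1 and Glb1 in a complex, had 83.6, 92.9 and 92.15 FPKM at day 1 and 59.1 FPKM at day 0 (log2 change 0.59 ± 0.12, limma adjusted p = 0.029). Ctsd, an aspartyl protease, had 81.7, 74.3 and 76.2 FPKM at day 1 and 53.1 FPKM at day 0 (log2 change 0.53 ± 0.11, limma adjusted p = 0.032), and its day 1 mean lay inside the counting interval of 34.1 to 79.1 FPKM. With the median change of all genes set to 0 both signs turned, to -0.0057 for Ctsa and -0.060 for Ctsd. Ctsa shares exon bases with Pltp and Neurl2 on the other strand, and Ctsd shares 808 with Gm49369 on its own. Ctse, an endosomal aspartyl protease, was listed at 0 at day 0 and had 5.48, 3.88 and 3.62 FPKM at day 1, under its day 0 floor of 6.65 FPKM, so its call (limma adjusted p = 0.0096) is not a difference detectable at the day 0 depth.

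Hydrolases of sugars and lipids were expressed lower than the proteases. Of these 9, 5 rose (55.6%, against 35.0% of all genes) and 4 passed in neither direction. Their median log2 change was 1.20, and 7 of 9 rested on fewer than 10 fragments at day 0. Man2b1, the lysosomal alpha-mannosidase, had 39.6, 37.1 and 40.9 FPKM at day 1, against 13.9 FPKM at day 0 from 11.3 fragments (log2 change 1.43 ± 0.12, limma adjusted p = 0.0056). Neu1, the lysosomal sialidase, had 22.0, 25.4 and 25.05 FPKM at day 1 and 5.69 FPKM at day 0 from 2.99 fragments. Its log2 change was 1.91 ± 0.14 (limma adjusted p = 0.0050), and all day 1 values lay above the counting interval of 1.18 to 16.7 FPKM, which is too wide to fix the size of the fold.

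Gusb, beta-glucuronidase, had 15.1, 16.3 and 18.0 FPKM at day 1 and 5.18 FPKM at day 0 (log2 change 1.498 ± 0.15, limma adjusted p = 0.0077). Glb1, lysosomal beta-galactosidase, had 13.6, 12.03 and 15.7 FPKM at day 1 and 4.82 FPKM at day 0 (log2 change 1.34 ± 0.20, limma adjusted p = 0.015). Lipa, the acid lipase that frees cholesterol from its esters, had 11.5, 12.2 and 12.9 FPKM at day 1 and 4.71 FPKM at day 0 (log2 change 1.20 ± 0.13, limma adjusted p = 0.0090). The day 0 values of these 3 genes came from under 3 fragments each, and the day 1 means of Glb1 and Lipa lay inside their counting intervals.

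The 4 hydrolases that passed in neither direction were Hexa, Asah1, Gaa and Gla. Hexa, a subunit of beta-hexosaminidase, had 34.9, 30.9 and 28.8 FPKM at day 1 and 33.3 FPKM at day 0, with the day 0 value inside the day 1 range (log2 change -0.08 ± 0.16). Asah1, acid ceramidase, had 15.1, 18.5 and 18.4 FPKM at day 1 and 11.9 FPKM at day 0 (log2 change 0.50 ± 0.18). Gaa, which breaks down glycogen, had 12.2, 11.9 and 10.9 FPKM at day 1 and 9.69 FPKM at day 0 (log2 change 0.24 ± 0.13). All day 1 values of Asah1 and Gaa lay above day 0, by less than the test required. Gla, alpha-galactosidase A, was the lowest member, at 2.13, 2.71 and 1.42 FPKM at day 1 and 1.69 FPKM at day 0 from 1.14 fragments, which is too little to show a difference.

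The cofactors and cholesterol export proteins moved in both directions. Psap, the precursor of the saposins that present lipids to hydrolases, was the most abundant of the 37 genes, with 365, 366 and 405 FPKM at day 1 and 287 FPKM at day 0 from 162 fragments. The day 1 mean lay above the counting interval of 245 to 336 FPKM, while the log2 change of 0.40 ± 0.13 missed the threshold (limma adjusted p = 0.080). Grn (chr11:102430315-102437048, plus strand, GRCm38), the precursor of the lysosomal granulins, had 87.0, 75.7 and 70.4 FPKM at day 1, against 124 FPKM at day 0 from 61.7 fragments, with a counting interval of 95.7 to 160 FPKM. Its day 1 values all lay below that interval, the mean was 1.60-fold lower, and the log2 change was -0.68 ± 0.17 (limma adjusted p = 0.044). The call of Grn ended without day 1 replicate 2 (adjusted p = 0.16) and without replicate 3 (adjusted p = 0.092).

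Npc2 and Npc1 hand cholesterol out of the lysosome. Npc2, the soluble carrier, had 32.4, 31.1 and 26.55 FPKM at day 1 and 14.3 FPKM at day 0 (log2 change 1.01 ± 0.16, limma adjusted p = 0.018). Npc1, the membrane transporter, had 4.43, 6.34 and 5.95 FPKM at day 1 and 2.67 FPKM at day 0 from 2.95 fragments (log2 change 0.83 ± 0.25, limma adjusted p = 0.065). Both had all day 1 libraries above day 0, and Npc2 alone passed.

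Of 6 membrane proteins, Lamp1, Mcoln1 and Cd63 rose (50.0%, against 35.0% of all genes) and 3 passed in neither direction. Lamp1, a major glycoprotein of the lysosomal membrane, had 61.7, 61.4 and 57.8 FPKM at day 1 and 25.0 FPKM at day 0 from 11.8 fragments (log2 change 1.24 ± 0.11, limma adjusted p = 0.0059). Mcoln1, a calcium channel that releases calcium from lysosomes, had 60.6, 41.7 and 45.8 FPKM at day 1 and 17.6 FPKM at day 0 (log2 change 1.42 ± 0.27, limma adjusted p = 0.024). Cd63, a tetraspanin of late endosomes, was listed at 0 at day 0 and had 17.6, 16.9 and 18.9 FPKM at day 1. The 3 day 1 libraries of Cd63 lay close together and above both its floor of 13.3 FPKM and the upper bound of its counting interval, 16.4 FPKM (limma adjusted p = 0.0029).

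Lamp2, which also serves chaperone-mediated autophagy, had 16.2, 18.8 and 19.1 FPKM at day 1 and 14.1 FPKM at day 0 (log2 change 0.33 ± 0.15). Scarb2, which carries glucocerebrosidase to the lysosome, had 17.3, 14.1 and 16.2 FPKM at day 1 and 13.4 FPKM at day 0 (log2 change 0.23 ± 0.17). Laptm5, a blood-cell protein that sends antigen receptors to degradation, had 211, 235 and 313 FPKM at day 1 and 141 FPKM at day 0 from 77.6 fragments (log2 change 0.82 ± 0.28, limma adjusted p = 0.088). Lamp2 and Scarb2 were above day 0 in every day 1 library by less than the test required, and the day 1 mean of Laptm5 lay above its counting interval of 112 to 176 FPKM with a spread of 53.3 FPKM (SD) between libraries.

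The proton pump genes had the lowest median log2 change of the role groups, 0.48, under the 0.59 of all genes, so that 3 of the 4 positive ones (Atp6v0c, Atp6v1b2 and Atp6ap1) turned negative when the median of all genes was set to 0. Only Atp6v0d1, a subunit of the membrane sector, rose among the 5 (20.0%, against 35.0% of all genes). It had 74.8, 68.1 and 69.3 FPKM at day 1 and 32.0 FPKM at day 0 from 11.1 fragments (log2 change 1.12 ± 0.11, limma adjusted p = 0.0079). Atp6v0c, the subunit of the proton-carrying ring, had 216, 179 and 159 FPKM at day 1 and 126 FPKM at day 0 (log2 change 0.54 ± 0.22, limma adjusted p = 0.12). GENCODE lists pseudogenes of Atp6v0c, and of Cd63, that could share reads with them.

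Atp6v1b2, of the ATP-cleaving sector, had 23.5, 26.4 and 27.6 FPKM at day 1 and 18.2 FPKM at day 0 (log2 change 0.48 ± 0.14, limma adjusted p = 0.066). Atp6v1a, its catalytic partner, had 7.45, 9.22 and 8.54 FPKM at day 1 and 10.9 FPKM at day 0 from 9.76 fragments (log2 change -0.34 ± 0.17). Atp6ap1, an accessory subunit, had 39.6, 46.6 and 78.8 FPKM at day 1 and 45.8 FPKM at day 0, and its sign turned without day 1 replicate 3 (log2 change 0.20 ± 0.47, and -0.089 without it). Atp6v1a was thus low in all 3 day 1 libraries without passing, and Atp6ap1 had the widest spread of all members, a coefficient of variation of 38.0%.

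Tfeb (chr17:47737030-47792419, plus strand, GRCm38), the transcription factor of lysosomal genes, had 58.5, 56.1 and 55.3 FPKM at day 1, against 24.0 FPKM at day 0 from 11.7 fragments. Its fold was 2.36, its log2 change 1.20 ± 0.10 (limma adjusted p = 0.0059), and its day 1 libraries agreed most closely of all members, with a coefficient of variation of 3.00%. The authors' deposited table gives it 0.02 on the log2 scale. Of the 7 genes with TCACGTGA in the promoter window, 5 rose and the median log2 change was 0.59, the same to 2 decimals as that of all genes tested. Of the 24 matched genes without it, 13 rose and 2 fell, with a median of 1.07. Of all genes tested, 35.0% rose and 19.0% fell. The groups with and without the motif are small, and their difference was not tested.

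**Figure D3:**
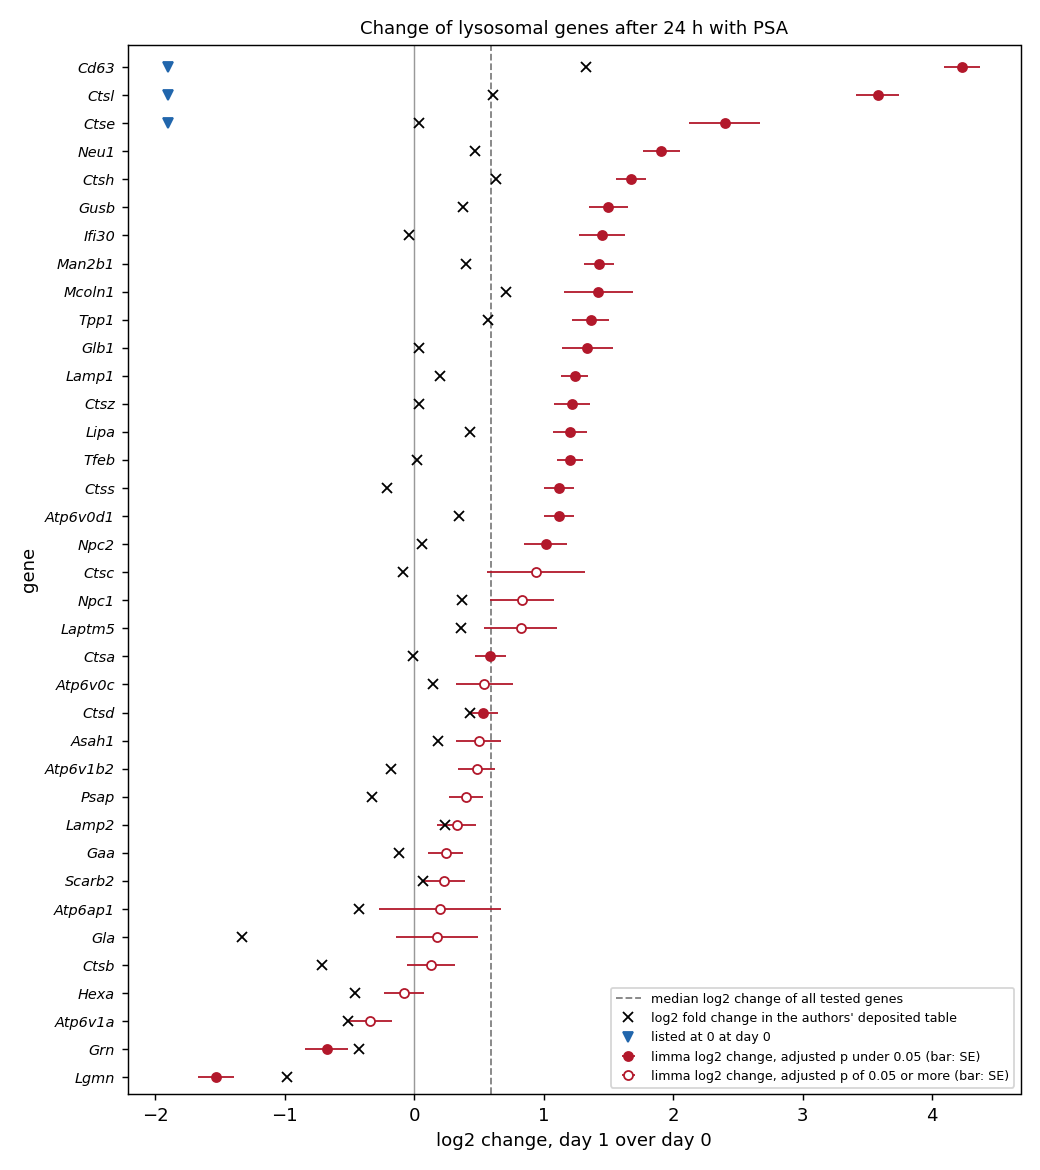
Limma log2 changes of day 1 over day 0 are plotted as red circles with standard errors, filled where the adjusted p is under 0.05, beside the values of the authors' deposited table (crosses) and the median of all genes at 0.59 (dashed line). Blue triangles mark the 3 genes listed at 0 at day 0, and most crosses lie to the left of their circles.

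Replicate spread at day 1 was small for these genes. The median coefficient of variation over the 3 libraries was 8.76% for the members, 20.1% for all genes tested and 11.9% for genes with at least 10 fragments predicted at day 0. Day 1 replicate 1 held the highest value for 16 members, replicate 2 for 7 and replicate 3 for 14. Ordered by their day 1 mean, from Psap at 379 FPKM to Gla at 2.09 FPKM, 9 of the 36 pairs of neighbours had day 1 ranges that did not overlap, and 27 pairs could not be ordered beyond their spread.

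Other lysosomal genes outside the 37 were read from lists made with earlier results of these data known. Of 13 further proton pump subunits tested, 11 rose (84.6%, against 35.0% of all genes), with a median log2 change of 1.89, above the 0.48 of the 5 subunits in the set; 9 of the 11 rested on fewer than 10 fragments at day 0. Atp6v1c1 had 15.4, 11.8 and 15.5 FPKM at day 1 and 2.25 FPKM at day 0 from 0.991 fragments (log2 change 2.22). Atp6v0a2 had 7.36, 7.50 and 8.06 FPKM at day 1 and 0.871 FPKM at day 0 from 0.988 fragments (log2 change 2.21). Both day 0 values thus rest on about 1 fragment. Atp6v1g1, with 34.3, 31.2 and 26.6 FPKM at day 1, and Atp6ap2, with 13.6, 18.2 and 19.9 FPKM, were listed at 0 at day 0.

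Of 10 other proteases and inhibitors tested, 6 rose (60.0%, against 35.0% of all genes), with a median log2 change of 1.28. Scpep1, a serine carboxypeptidase, had 29.2, 35.4 and 38.0 FPKM at day 1 and 11.2 FPKM at day 0 (log2 change 1.52, limma adjusted p = 0.012). Prcp, a prolyl carboxypeptidase, had 20.6, 20.8 and 24.0 FPKM at day 1 and 6.30 FPKM at day 0 (log2 change 1.64, limma adjusted p = 0.0066). The cathepsin Ctso had 14.5, 17.2 and 14.3 FPKM at day 1 and 4.05 FPKM at day 0 (log2 change 1.69). These 3 were higher in every day 1 library, and Dpp7, a dipeptidyl peptidase, with 11.4, 14.5 and 16.6 FPKM at day 1, was listed at 0 at day 0.

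Of 28 other hydrolases and cofactors, 14 rose (50.0%, against 35.0% of all genes) and 5 fell (17.9%, near the 19.0% of all genes), with a median log2 change of 0.78. Dnase2a, the lysosomal DNase that clears DNA of engulfed nuclei, had 41.7, 51.0 and 40.9 FPKM at day 1, against 634 FPKM at day 0 from 231 fragments. Its log2 change of -3.81 ± 0.18 (limma adjusted p = 0.0034) was far larger than the spread at day 1, while the authors' deposited table gives -1.93 with a false discovery rate of 0.13. The day 0 value of Dnase2a comes from 1 library, in which some genes near 0 at day 1 also stood high. The 3 others named by size were listed at 0 at day 0: Smpd1, acid sphingomyelinase, with 11.7, 12.5 and 12.8 FPKM at day 1, Idua, alpha-L-iduronidase, with 12.32, 11 and 13.62 FPKM, and Rnaset2b, a lysosomal RNase with a near-identical copy, Rnaset2a, that makes its value uncertain, with 72.5, 57.2 and 50.8 FPKM.

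Of 27 other membrane proteins, 13 rose (48.1%, against 35.0% of all genes) and 3 fell (11.1%, against 19.0%). The median log2 change was 0.98, and all 13 rises had fewer than 10 fragments at day 0. Clcn7, the lysosomal chloride and proton exchanger, had 11.95, 10.8 and 12.9 FPKM at day 1, against 159 FPKM at day 0 from 137 fragments (log2 change -3.64 ± 0.14, limma adjusted p = 0.0031). The authors' deposited table gives Clcn7 -1.29 with a false discovery rate of 0.48. Tmem175, a potassium and proton channel, had 8.07, 7.56 and 7.88 FPKM at day 1, Slc38a9, an arginine sensor, had 6.72, 6.52 and 7.51 FPKM, and Tmem106b had 6.72, 5.89 and 7.66 FPKM. The 3 genes were listed at 0 at day 0.

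Genes of enzyme sorting and lysosome fusion rose in 12 of 18 cases (66.7%, against 35.0% of all genes). The other 6 passed in neither direction (median log2 change of the 18, 1.12). Vps16, of the tethering complexes that fuse lysosomes, had 121, 112 and 90.4 FPKM at day 1 and 19.4 FPKM at day 0 from 13.0 fragments (log2 change 2.41 ± 0.21, limma adjusted p = 0.0064). Rab7, the GTPase of late endosomes, had 68.0, 71.8 and 70.9 FPKM at day 1 and 15.0 FPKM at day 0 (log2 change 2.16 ± 0.10, limma adjusted p = 0.0034). Both stood far above day 0 in each library, as did Nagpa, which uncovers the mannose 6-phosphate tag of lysosomal enzymes, at 33.3, 27.2 and 30.3 FPKM at day 1 and 4.41 FPKM at day 0. Plekhm1, an adaptor of lysosome fusion, had 18.9, 20.9 and 25.3 FPKM at day 1 and 5.43 FPKM at day 0 (log2 change 1.81).

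Another list held the TFEB family and its control by mTORC1, the nutrient-sensing kinase that holds TFEB in the cytoplasm. Of 13 tested genes, 5 rose (38.5%, near the 35.0% of all genes) and Fnip1 fell (7.69%, against 19.0%). The median log2 change was 0.41, under the 0.59 of all genes. Tfe3, a relative of Tfeb, had 9.85, 9.27 and 13.1 FPKM at day 1 and 1.74 FPKM at day 0 from 1.21 fragments (log2 change 2.09). Flcn, folliculin, had 17.6, 17.7 and 20.7 FPKM at day 1 and 1.69 FPKM at day 0 from 1.23 fragments (log2 change 2.86, limma adjusted p = 0.0038). Its partner Fnip1 went the other way, with 3.14, 2.60 and 2.85 FPKM at day 1, against 31.9 FPKM at day 0 from 42.4 fragments (log2 change -3.09 ± 0.16, limma adjusted p = 0.0035), and the authors' deposited table also calls it lower, at -2.80 with a false discovery rate of 0.0099. Lamtor3, of the complex that anchors mTORC1 to lysosomes, had 24.8, 17.3 and 18.2 FPKM at day 1 and was listed at 0 at day 0.

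Autophagy genes rose in 10 of 16 cases (62.5%, against 35.0% of all genes) and fell in 2 (12.5%, against 19.0%). Their median log2 change was 0.98. Sqstm1, the p62 receptor that brings cargo to autophagosomes, had 374, 407 and 340 FPKM at day 1 and 68.5 FPKM at day 0 from 29.6 fragments (log2 change 2.43 ± 0.16, limma adjusted p = 0.0043). Becn1, which starts autophagosome formation, had 35.7, 37.7 and 38.3 FPKM at day 1, against 122 FPKM at day 0 from 113 fragments (log2 change -1.68 ± 0.10, limma adjusted p = 0.0041). The authors' deposited table gives Sqstm1 0.97 and Becn1 -0.42, with false discovery rates of 0.61 and 0.96. These 2 genes moved in opposite directions, and Map1lc3a, with 8.78, 12.8 and 9.07 FPKM at day 1, and Atg9a, with 5.87, 5.96 and 6.61 FPKM, were listed at 0 at day 0. The day 1 mean of Map1lc3a, 10.2 FPKM, lay under its day 0 floor of 12.7 FPKM, so its call is not a difference detectable at the day 0 depth.

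Macrophages and dendritic cells carry many lysosomes, and most of their markers that passed the test fell. Of 11 macrophage markers tested, 2 rose (18.2%, against 35.0% of all genes) and 7 fell (63.6%, against 19.0%). Their median log2 change was -1.99. All 16 listed markers summed to 129 to 141 FPKM at day 1 and 171 FPKM at day 0. Their median level was 0.607 FPKM at day 1 and 8.92 FPKM at day 0. Mertk, Fcgr1, Cd163, Mrc1 and Siglec1 were listed at 0 at day 0. Of 8 dendritic cell markers tested, 2 rose (25.0%, against 35.0%) and 5 fell (62.5%, against 19.0%), with a median log2 change of -0.74. Dendritic cell markers summed to 130 to 141 FPKM at day 1 and 273 FPKM at day 0, where Zbtb46 was listed at 0. B cell markers summed to 3377 to 4028 FPKM at day 1 and 3621 FPKM at day 0, with 5 of 10 rising and 2 falling. A sum follows its most abundant genes, so these similar sums hide that fall and do not show that each B cell marker held its level. The median log2 change of the 10 was 0.76, and their median level was 169.6 FPKM at day 1 and 139.6 FPKM at day 0.

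Sums of plasma cell markers were 462 to 496 FPKM at day 1 and 331 FPKM at day 0. Of 6 tested, 4 rose (66.7%, against 35.0% of all genes). Neutrophil markers summed to 38.1 to 57.8 FPKM at day 1 and 21.8 FPKM at day 0, where S100a9, Elane, Mpo, Camp and Retnlg were listed at 0. Of 7 tested, 4 rose (57.1%, against 35.0%) and 1 fell (14.3%, against 19.0%). All 4 rises started from 0 at day 0, and 0 of them had a day 1 mean above the counting interval. T and NK cell markers summed to 69.8 to 102 FPKM at day 1 and 120 FPKM at day 0. Of 7 tested, 1 rose (14.3%, against 35.0%) and 2 fell (28.6%, against 19.0%). Platelet markers summed to 3.28 to 5.31 FPKM at day 1 and 0 at day 0. Of 2 tested, 1 rose (50.0%, against 35.0%), with its day 1 mean not above its counting interval. The part of these cell types in the changes of the lysosomal genes was not tested.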

How the data were processed

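Per the labels' protocols, reads had their 3' adaptor removed, reads shorter than 10 nt were left out, and alignment and FPKM estimation used TopHat and Cufflinks. The submitters' processing notes give TopHat 1.4.1, Cufflinks 2.2.1, cutadapt, Cuffdiff and build GRCm38.p6. How strands and reads with several matches were counted is not given in the sources used here. The deposited table gives FPKM for 4 libraries and, per the file headers, the authors' log2 fold change (day 1 over day 0), logCPM on a log2 scale, p-value and false discovery rate. Cuffdiff, with a q-value threshold of 0.05, is named by the labels, whereas the deposited columns themselves name no test.

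The 13903 genes that reached 1 FPKM in any library were tested with limma 3.58.1 (trend, R 4.3.3) on log2(FPKM + 1), which understates changes of low genes, with Benjamini-Hochberg adjustment over all and a threshold of 0.05. The spread of day 1 was taken to hold for the single day 0 library, leaving 2 residual degrees of freedom (prior 1.27). A fold is a ratio of mean FPKM. Errors are SD over the 3 day 1 libraries or SE of the log2 change.

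Depth was estimated from FPKM times length in kb over 1182 single-transcript coding genes of GENCODE M21 (GRCm38, holding 16232 of 17519 IDs). At the step found, 63.1%, 66.1% and 67.1% of low values at day 1 and 61.3% at day 0 came within 0.1 of a whole fragment, where chance gives 20%, so no count test was run. Fragments use 1 transcript length per gene and are estimates, and the counting interval was chosen after seeing the data.

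All 37 members are named. From each other list the text names up to 4 genes with the largest change among those that passed the test and reached 5 FPKM in the higher group. Markers are given as counts and sums, with Pax5 named for its part in the B cell sum. The result of 1 marker list is not reported here. The members and lists were chosen with earlier results of these data known.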

Additional observations from a re-analysis of the deposited data

How the results depend on the processing

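No paired analysis was possible because day 0 is 1 library, so the groups share fewer than 2 replicate numbers. The shallow day 0 library limits every call, and 9 of the 20 rises rest on fewer than 10 day 0 fragments. Of 430 member values under 12 alternatives, 376 kept direction and side of the threshold, 29 lost the call with the same sign, 6 gained one and 19 changed sign. Calls lost numbered 31 in all, since Ctsa and Ctsd with the median set to 0 changed sign and lost the call. The 20 rises among members became 7 to 18 with a day 1 library left out (7 without replicate 2), and the 2 falls became 0 to 2. Without replicate 2, where limma called no fall, 1 member (Lgmn) was lower at an unadjusted p under 0.05. The falls numbered 1 with no filter on low values, 1 for limma without trend and 4 with the median change of all genes set to 0, where Atp6v1a and Hexa were added. Under these settings 2428 of 17519, 2614 of 13903 and 3895 of 13903 genes fell. With the median set to 0, 15 of 37 members rose, against 3034 of 13903 genes. Of all genes, 4869 rose, which became 2834 over genes above 0 at day 0, 2013 over genes with 10 predicted fragments, 3034 with the median set to 0, 2312 when also outside the counting interval, and 2317 to 3875 with a library left out. The 2640 falls became 560 over genes with 10 predicted fragments and 1317 to 2012 with a library left out. The members' median of 0.94 was 0.35 with the median set to 0 and 0.62 when scaled to 3670 genes that reach 10 FPKM in all libraries, which moved the day 1 libraries by -0.34, -0.33 and -0.32 (log2). Scaling to protein-coding fragments moved day 0 by -0.14. With the median set to 0 the log2 change was -0.096 for Asah1, -0.40 for Atp6ap1, -0.053 for Atp6v0c, -0.11 for Atp6v1b2, -0.0057 for Ctsa, -0.46 for Ctsb, -0.060 for Ctsd, -0.35 for Gaa, -0.42 for Gla, -0.27 for Lamp2, -0.20 for Psap and -0.37 for Scarb2. Scaled to genes of at least 10 FPKM it was -0.12 for Atp6ap1, -0.18 for Ctsb, -0.054 for Gaa, -0.034 for Gla and -0.078 for Scarb2, and scaled to protein-coding fragments it was 0.054 for Hexa. Atp6ap1 ran from -0.089 to 0.40 with a library left out. Apart from the smaller sets of genes or libraries, the cause was not tested.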
